A study of Mus musculus with 6 samples.

Results

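The genes described are the 10 collagen genes that encode chains of type IV collagen (Col4a1, Col4a2, Col4a4, Col4a5 and Col4a6), type VI collagen (Col6a1, Col6a2 and Col6a3) and the multiplexins type XV and type XVIII (Col15a1 and Col18a1). They were chosen by gene name, and all 10 have a row among the 16540 genes of the table. RNA came from NIH-3T3 cells, an established fibroblast line of NIH/Swiss mouse strain, that carried Cas9 and 1 of 3 guide RNAs delivered by lentivirus. The control guide was R26 sg1, and PC sg2 and PC sg5 target pyruvate carboxylase, encoded by Pcx, with 2 libraries for each guide. All groups, the control included, expressed Cas9, were selected with 2 ug/mL puromycin, were polyclonal pools rather than single clones, and were kept for 48 h with 10% dialyzed serum and only 0.2 mM glutamine in the medium. The study's title puts the question whether this enzyme in fibroblasts is needed for collagen production. No label ties a library to a culture of its own, and p-values therefore cover only how far these samples spread, which may be a technical spread.

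Type IV collagen forms a sheet-like network in basement membranes, in which triple-helical molecules made of 3 chains join at their ends. Type VI collagen assembles into beaded filaments next to cells and basement membranes, and type XV and type XVIII collagen carry glycosaminoglycan chains and sit at the basement membrane zone. Fibroblasts are a main source of type VI collagen in connective tissue. The C-terminal part of type XVIII collagen can be released as endostatin, which inhibits blood vessel growth.

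The targeted gene checks the labels. Pcx stood at 2914 and 3015 normalised counts in control cells, then 316 and 375 (PC sg2) and 713 and 716 (PC sg5), so the groups did not overlap. A normalised count is the number of reads of a gene after division by the library's size factor. Between 22895172 reads (PC sg5 replicate 2) and 71710049 reads (control replicate 2) were recovered per library. At a count of 0, the upper 95% limit of the expected reads is about 3 (counting error only). These 3 reads equal 2.18 to 6.41 normalised counts. Replicates of a guide were not copies of each other, since the chi-square between their reads was at least 3.06 per degree of freedom. Fibroblast markers were abundant in all libraries, with 6 of 6 listed and a summed level of at least 428888 normalised counts.

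Several of the genes lie side by side. Positions are on GRCm38, and all 10 genes are protein coding. Col4a1 (ENSMUSG00000031502, chromosome 8, 11198423 to 11312826, minus strand) and Col4a2 (ENSMUSG00000031503, chromosome 8, 11312805 to 11449287, plus strand) are transcribed away from each other, and their annotated first exons overlap by 22 bases. Col4a5 (ENSMUSG00000031274, chromosome X, 141475385 to 141689234, plus strand) and Col4a6 (ENSMUSG00000031273, chromosome X, 141165403 to 141474076, minus strand) also point away from each other, with 1308 bases between them. Col6a1 (ENSMUSG00000001119, chromosome 10, 76708792 to 76726168, minus strand) and Col6a2 (ENSMUSG00000020241, chromosome 10, 76595762 to 76623630, minus strand) lie in the same direction, 85.2 kb apart. Col6a3 (ENSMUSG00000048126, chromosome 1, 90765923 to 90843971, minus strand) and Col4a4 (ENSMUSG00000067158, chromosome 1, 82448423 to 82586849, minus strand) are on another chromosome. Col15a1 (ENSMUSG00000028339) is on chromosome 4, 47208161 to 47313167, plus strand, and Col18a1 (ENSMUSG00000001435) on chromosome 10, 77052178 to 77166548, minus strand. At most 0.982% of a chain's exon bases are shared with another annotated gene, and whether the counting used strand is not given in the labels.

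Start regions are shown because the type VI chains moved together and because Col4a1 and Col4a2 start side by side, with Col4a4 as the chain that went the other way. Sequences are from RefSeq on GRCm38.p6 and read 5′ to 3′ on the stated strand. All 10 genes matched a window of 250 bases before to 50 bases after a RefSeq start, 12 windows in all. The first line is chr8:11312797-11312834 on the plus strand, around the starts of Col4a2 and Col4a1, and its capitals mark the 22 bases that both first exons contain. The second line is chr10:76726116-76726145 on the minus strand, a stretch of the Col6a1 window whose capitals mark a match to the AP-1 site TGANTCA. It lies before the RefSeq start of Col6a1 (76726044) but after the GENCODE start (76726168), inside the gene as given above. The other lines give the 250 bases before the start of Col6a2 (chr10:76623631-76623880), Col6a3 (chr1:90843972-90844221) and Col4a4 (chr1:82586850-82587099), all on the minus strand. Their capitals mark the longest stretch made only of A and G, which in Col6a2 is all G.
Col4a2 and Col4a1: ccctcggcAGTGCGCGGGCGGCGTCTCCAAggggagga
Col6a1: tgctgatgctgTGACTCActcagctttgag
Col6a2: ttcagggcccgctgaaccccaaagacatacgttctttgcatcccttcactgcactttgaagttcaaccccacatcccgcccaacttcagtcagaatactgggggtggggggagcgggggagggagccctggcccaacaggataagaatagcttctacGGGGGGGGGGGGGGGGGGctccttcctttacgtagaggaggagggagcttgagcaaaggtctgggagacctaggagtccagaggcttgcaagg
Col6a3: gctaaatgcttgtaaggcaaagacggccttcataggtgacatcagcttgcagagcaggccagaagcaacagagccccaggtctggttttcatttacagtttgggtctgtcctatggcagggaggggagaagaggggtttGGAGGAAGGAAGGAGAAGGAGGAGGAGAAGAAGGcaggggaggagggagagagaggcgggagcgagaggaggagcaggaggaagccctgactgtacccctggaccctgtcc
Col4a4: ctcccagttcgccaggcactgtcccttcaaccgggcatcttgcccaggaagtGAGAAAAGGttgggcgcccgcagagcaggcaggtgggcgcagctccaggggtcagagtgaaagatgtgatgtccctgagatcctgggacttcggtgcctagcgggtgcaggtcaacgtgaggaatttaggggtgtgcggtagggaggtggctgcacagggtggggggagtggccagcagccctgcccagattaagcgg

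The windows of the type VI genes hold long stretches of only A and G, or only C and T. The longest was 34 bases in Col6a3, 29 in Col6a1, and 22 and 18 in the 2 windows of Col6a2, of which the second is printed above. In the windows of the type IV genes and the multiplexins it was 9 to 13 bases, against a median of 11 over all 32851 windows. A stretch as long as that of Col6a3 was found in 0.865% of all windows, one as long as that of Col6a1 in 1.61%, and those of the Col6a2 windows in 4.74% and, for the one printed, 10.2%. This feature was singled out after the sequences were seen. The stretches of Col6a1 and of the first Col6a2 window lie after the GENCODE start of their gene. Among 7 motifs searched on both strands, the CCAAT box CCAAT matched in the windows of Col4a1, Col4a2 and Col4a5 and in 1 of the 2 windows of Col18a1, and it matched in 37.4% of all windows. The GC box GGGCGG matched in at least 1 window of Col4a1, Col4a2, Col4a5, Col4a6, Col6a2 and Col18a1 (35.7% of all windows). The only match of Col4a1 is the same site as a match of Col4a2, inside the bases that both first exons contain. The AP-1 site matched in Col6a1 only (7.81% of all windows). The TATA box TATAAA (13.6%), the E-box CACGTG (7.15%), the cAMP response element TGACGTCA (1.79%) and the C/EBP-ATF element TGATGNAA (3.97%) matched in no window of these genes. Matches describe letters in these windows and not binding.

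Type VI collagen RNA was far lower with both PC guides. Col6a3, whose chain carries a long array of von Willebrand factor A domains, was at 50047 and 54200 normalised counts under the control guide, at 11492 and 10613 under PC sg2 and at 11341 and 11833 under PC sg5. All 4 PC libraries lay below both controls, and the PC mean was 21.7% of the control mean. Over both PC guides the log2 fold change was -2.20 ± 0.03 (SE; limma, Benjamini-Hochberg adjusted p of 3.62e-22), and Col6a3 ranked 299 from the lowest of 16526 genes tested. Here and below, fold changes are on the log2(normalised count + 1) scale, and passing means an adjusted p under 0.05. Of all tested genes 67.9% passed for both guides against control. The share of them without overlap between the groups was not counted, so a lack of overlap does not set a chain apart. In RNA from whole cultures, fewer cells of a type and less RNA per cell cannot be told apart.

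The shorter chains of type VI collagen moved with it. Col6a1 had 92287 and 94765 normalised counts in control cells, then 25296 and 22787 (PC sg2) and 24390 and 24910 (PC sg5), a PC mean of 26.0% of the control mean. Its log2 fold change was -1.94 ± 0.03 (SE). Col6a2 was at 53038 and 54854 normalised counts under the control guide, at 15827 and 14759 under PC sg2 and at 14997 and 16254 under PC sg5, or 28.7% of the control mean. Its log2 fold change was -1.80 ± 0.03 (SE). For both chains the PC libraries lay far below the controls with no overlap, and the limma adjusted p-values were 4.17e-22 and 2.36e-21. All 3 type VI chains were at least 2-fold lower, a size of fall that 11.3% of all tested genes reached.

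The main type IV chains fell less. Col4a1 and Col4a2 encode the chains of the most widespread type IV network. Col4a1 had 64249 and 67695 normalised counts in control cells, then 41985 and 41889 (PC sg2) and 41113 and 39486 (PC sg5), a log2 fold change of -0.68 ± 0.02 (SE). Col4a2 was at 59049 and 60288 normalised counts under the control guide, at 43262 and 42357 under PC sg2 and at 41460 and 41273 under PC sg5, a log2 fold change of -0.50 ± 0.02 (SE). The PC means were 62.3% and 70.5% of the control means, with limma adjusted p-values of 1.44e-16 and 2.47e-15. In each case the controls stood above all PC libraries.

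Col4a5 and Col4a6 encode chains that join in another type IV network, found in smooth muscle and some epithelia. Col4a5 had 19860 and 20405 normalised counts in control cells, then 15971 and 15948 (PC sg2) and 15512 and 15281 (PC sg5). This was the smallest change among the chains that fell, a log2 fold change of -0.36 ± 0.02 (SE, limma adjusted p of 1.62e-11), or 77.9% of the control mean. Its neighbour Col4a6 was rare, at 311 and 277 normalised counts under the control guide, at 140 and 124 under PC sg2 and at 91.0 and 137 under PC sg5. The controls again lay above all PC libraries, and the log2 fold change was -1.27 ± 0.17 (SE, limma adjusted p of 7.97e-07). Its range within PC sg5 rests on 90 and 64 recovered reads.

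Col4a4 was the only chain that rose, from a very low level. Its chain belongs to the type IV network of the kidney glomerulus, together with those of Col4a3 and Col4a5. It had 22.4 and 14.5 normalised counts in control cells, then 64.7 and 58.5 (PC sg2) and 51.6 and 53.4 (PC sg5). These values come from 30 and 20 recovered reads under the control guide and 25 to 83 under the PC guides, and the groups did not overlap. The log2 fold change was 1.60 ± 0.30 (SE, limma adjusted p of 7.25e-05), with a 95% confidence interval of 0.97 to 2.23. Col4a3, its partner chain and neighbour, is not among the 10 genes and had group means of 34.1 normalised counts under the control guide, 27.4 under PC sg2 and 17.0 under PC sg5. Its log2 fold change of -0.64 ± 0.38 (SE) did not pass (limma adjusted p of 0.141).

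The multiplexins were far apart in level. Col18a1 was at 2523 and 2537 normalised counts under the control guide, at 1505 and 1495 under PC sg2 and at 1301 and 1383 under PC sg5. The PC mean was 56.2% of the control mean, with a log2 fold change of -0.83 ± 0.05 (SE, limma adjusted p of 1.41e-12). Col15a1 was near the limit of detection, with 14.2 and 14.5 normalised counts in control cells, then 17.9 and 14.9 (PC sg2) and 8.09 and 4.28 (PC sg5). The 4.28 in PC sg5 replicate 2 stands for 2 recovered reads and lies under that library's 3-read limit of 6.41. Col15a1 passed the filter on low values through the control and PC sg2 libraries. Its log2 fold change for both guides, -0.48 ± 0.52 (SE), did not pass (limma adjusted p of 0.425).

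**Figure D1:**
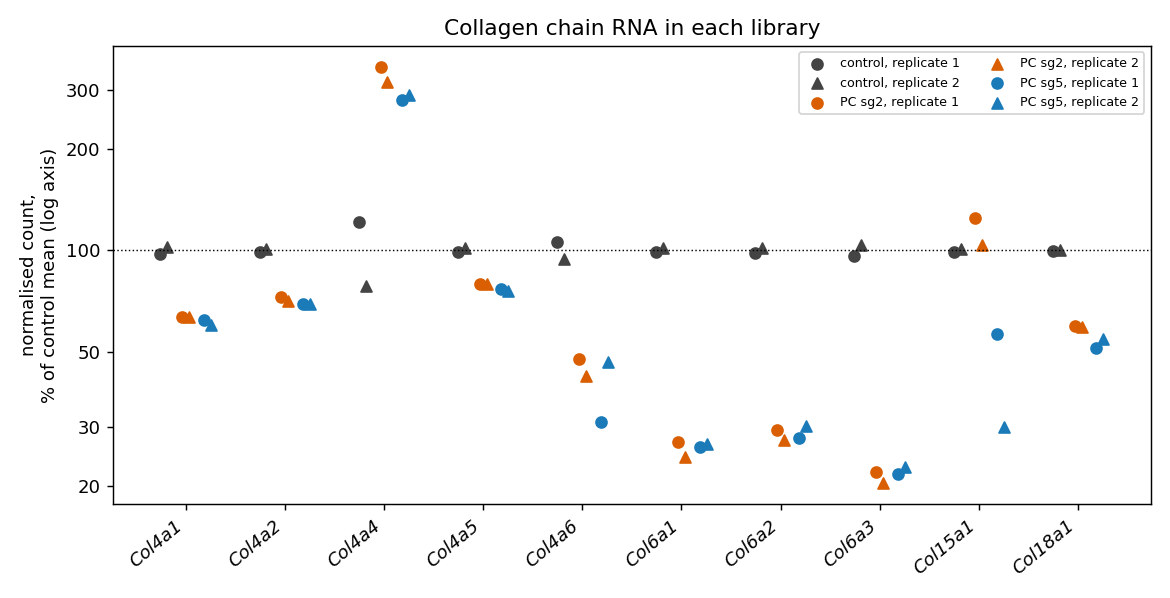
Normalised counts of the 10 chains in each library as a percent of the control mean (log axis), coloured by guide, with circles for replicate 1 and triangles for replicate 2. The type VI chains lie close together in all 4 PC libraries (means of 21.7%, 26.0% and 28.7%), Col4a1 and Col4a2 lie higher (62.3% and 70.5%), Col4a4 lies above the controls, and Col15a1 lies above both controls with PC sg2 and below them with PC sg5.

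Across the list, 8 of the 10 chains fell and 1 rose for both guides against control, so 9 of them passed where 67.9% of all tested genes did. Lower genes made up 33.6% of all tested genes and higher genes 34.3%. The share that passed was larger among more abundant genes. Where genes had to average 50 normalised counts, 10142 of 12921 passed (5290 higher and 4852 lower), and 8 chains passed, all lower. The median log2 fold change of the 10 chains was -0.76, against -0.01 over all tested genes. It was -0.50 for the 5 type IV chains and -1.94 for the 3 type VI chains. In all, 4 of the 10 (the type VI chains and Col4a6) fell at least 2-fold.

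Each PC guide gave nearly the same picture by itself. With PC sg2, 8 chains fell and 1 rose, where 31.6% of all tested genes fell, 32.9% rose and 64.5% passed in all. With PC sg5 again 8 fell and 1 rose, where 31.8% fell, 32.6% rose and 64.5% passed. Both comparisons share the control libraries. Col6a3 had a log2 fold change of -2.24 ± 0.04 (SE) with PC sg2 and -2.17 ± 0.04 with PC sg5. Col6a1 was at -1.96 ± 0.03 and -1.92 ± 0.03, and Col6a2 at -1.82 ± 0.04 and -1.79 ± 0.04. Col4a1 was at -0.65 ± 0.03 and -0.71 ± 0.03, Col4a2 at -0.48 ± 0.02 and -0.53 ± 0.02, Col4a5 at -0.33 ± 0.03 and -0.39 ± 0.03, and Col18a1 at -0.75 ± 0.06 and -0.91 ± 0.06. Among the rare chains, Col4a6 was at -1.15 ± 0.19 and -1.39 ± 0.19, Col4a4 at 1.72 ± 0.35 and 1.49 ± 0.35, and Col15a1, which did not pass with either guide, at 0.18 ± 0.60 and -1.15 ± 0.60. Without PC sg5 replicate 1, the value of Col15a1 for PC sg5 was -1.54, which rests on the 2 recovered reads of the library left. The standard errors of Col15a1 exceed those of the abundant chains, as do those of Col4a4 and Col4a6.

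None of the 10 chains passed in the direct comparison of PC sg5 with PC sg2 by limma, where 0.242% of all tested genes did (0.139% higher and 0.103% lower). At an unadjusted p under 0.05, 4 of them (Col4a1, Col4a2, Col15a1 and Col18a1) were lower with PC sg5, where 10.6% of all tested genes differed at that threshold and 5.98% were lower. Of these, Col15a1 had passed the filter on low values only through the control and PC sg2 libraries. On recovered reads edgeR and DESeq2 called 0 as well, and DESeq2 gave no adjusted p for 4 chains. The 95% confidence intervals cover only the spread of these libraries, which may be technical, and so do not bound a difference between the guides. For Col6a1 the interval of the log2 difference ran from -0.03 to 0.11, for Col6a3 from -0.01 to 0.15, and for Col4a1 from -0.11 to -0.0014. For the rare Col4a4 it was wide, from -0.95 to 0.50, and for Col15a1 it ran from -2.58 to -0.07 around -1.32. Pcx itself was 1.05 ± 0.08 (SE) higher on the log2 scale with PC sg5 than with PC sg2 (limma adjusted p of 6.60e-07).

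**Figure D2:**
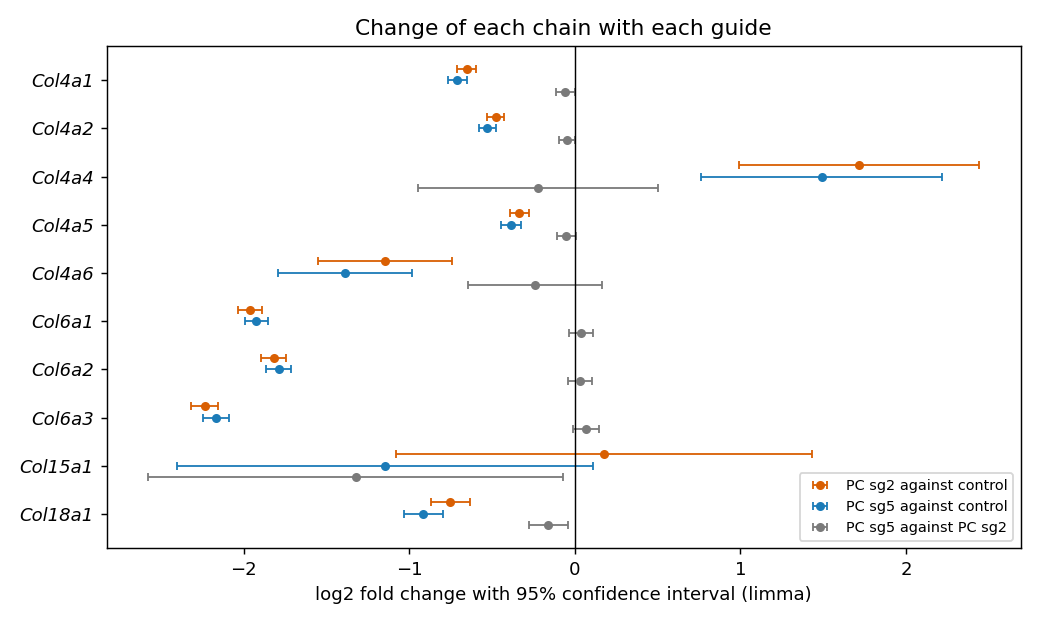
Log2 fold changes of the 10 chains (points) with 95% confidence intervals from limma for each PC guide set against the control guide and for the guides set against each other, on a log2(normalised count + 1) scale. Estimates for the abundant chains are tight and similar for both guides, while Col4a4, Col4a6 and Col15a1 have wide intervals.

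Levels of different chains can be set side by side only per length. Dividing by the length of each gene's principal transcript in GENCODE M21 (4100 bases for Col6a1, 9001 for Col6a3 and 6615 for Col4a1), Col6a1 was the highest chain in the controls with 22811 ± 427 normalised counts per kb (SD, n = 2). It was followed by Col6a2 (13661 ± 325), Col4a1 (9973 ± 368), Col4a2 (9251 ± 136), Col6a3 (5791 ± 326) and Col4a5 (3080 ± 58.9). Col18a1 followed with 528 ± 2.01, and Col4a6 (44.2 ± 3.61), Col15a1 (2.77 ± 0.05) and Col4a4 (1.82 ± 0.55) were rare. Each pair of neighbours in this order differed by more than the sum of their SDs. An SD of 2 libraries can fall below counting error, as for Col15a1 (19 and 20 recovered reads), so its place above Col4a4 stays uncertain. The SDs also do not cover the choice of length. With the length of all annotated exons, Col4a2 (9015) stood above Col4a1 (8839).

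In the PC libraries the order was different. Col4a2 stood highest with 6525 ± 142 normalised counts per kb (SD, n = 4), next to Col4a1 (6216 ± 175) and Col6a1 (5938 ± 269). Neither Col4a2 and Col4a1 nor Col4a1 and Col6a1 differed by more than the sum of their SDs. Col6a2 (3915 ± 177), Col4a5 (2399 ± 51.8) and Col6a3 (1258 ± 57.1) came after them, so that Col4a5 now stood above Col6a3. Col4a4 (5.64 ± 0.58) was above Col15a1 (2.18 ± 1.20). With the length of all annotated exons of a gene in place of the principal transcript, Col6a2 was below Col4a1 and Col4a2 in the controls (6479 against 8839 and 9015 normalised counts per kb), and below Col4a5 in the PC libraries (1857 against 2334).

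Summed over its chains, type VI collagen RNA per length exceeded type IV in the controls and was below it in every PC library. The type VI sum was 42263 ± 1079 normalised counts per kb in the controls (SD, n = 2) and 11110 ± 480 in the PC libraries (SD, n = 4). The type IV sum was 22350 ± 559 and 15164 ± 353. The ratio of type VI to type IV was 1.89 in both controls, 0.738 and 0.682 under PC sg2 and 0.732 and 0.781 under PC sg5. On the log2 scale the PC mean minus the control mean was -1.37 (SD within groups 0.06). An exact two-sided permutation test of 4 PC against 2 control libraries gave p = 0.133, the smallest value that 15 arrangements allow. With the length of all annotated exons the difference was -1.39. This ratio was chosen after the values were seen.

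**Figure D3:**
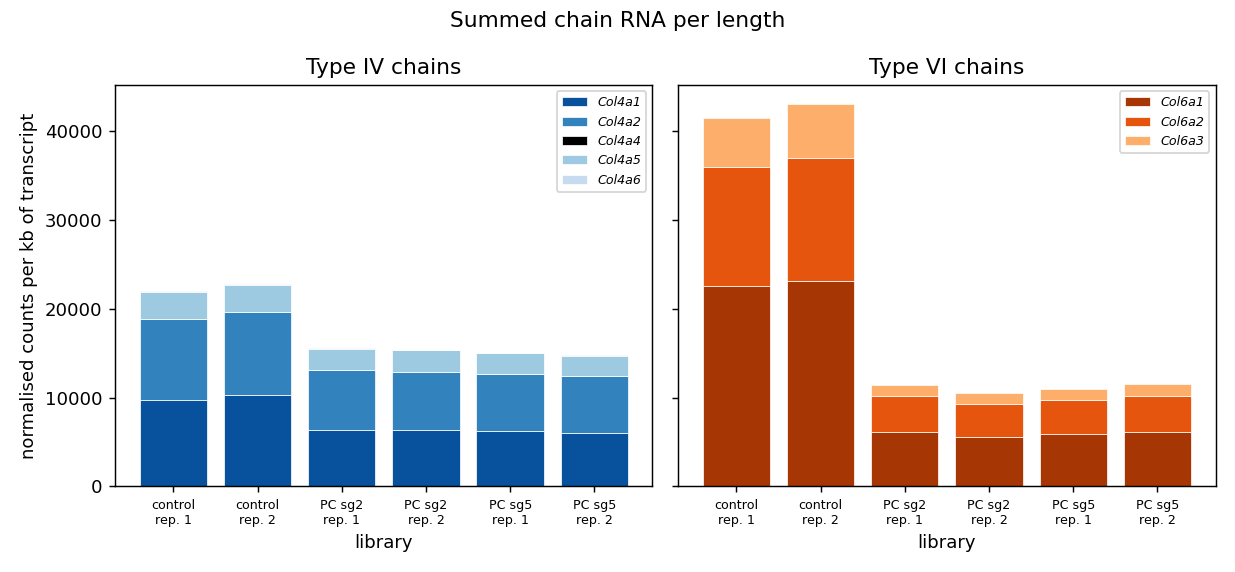
Stacked bars, from 0, of normalised counts per kb of principal transcript in each library, for the type IV chains on the left and the type VI chains on the right. The type VI stack is taller than the type IV stack in the controls (41500 and 43026 against 21955 and 22746) and shorter in the 4 PC libraries, and Col4a4 and Col4a6 are too rare to be seen.

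Within each type, chains kept similar but not identical proportions. In type VI, Col6a1 made up 54.0% of the per-length sum in the controls and 53.4% in the PC libraries, Col6a2 32.3% and 35.2%, and Col6a3 13.7% and 11.3%. The log2 ratio of Col6a3 to Col6a1 was -0.88 and -0.81 in the controls and between -1.14 and -1.07 in the PC libraries, a difference of -0.26 (SD within groups 0.04). The log2 ratio of Col6a2 to Col6a1 was -0.80 and -0.79 in the controls and between -0.70 and -0.62 in the PC libraries, a difference of 0.14 (SD within groups 0.04). In type IV, Col4a1 made up 44.6% and 41.0% of the sum, Col4a2 41.4% and 43.0%, and Col4a5 13.8% and 15.8%, while Col4a6 (0.198% and 0.122%) and Col4a4 (0.0082% and 0.0372%) added little. With the length of all annotated exons the shares were 66.3% and 66.5% for Col6a1, 20.1% and 22.2% for Col6a2 and 13.5% and 11.3% for Col6a3, and Col4a2 (43.2%) was above Col4a1 (42.3%) in the controls. All ratios of 1 chain to another in this paragraph, those above included, are of normalised counts and not per length. Their change between groups does not depend on length. The log2 ratio of Col4a2 to Col4a1 was -0.12 and -0.17 in the controls, against 0.01 to 0.06 under the PC guides, a difference of 0.18 (SD within groups 0.03). For these 3 ratios the control and PC libraries did not overlap, and each exact two-sided permutation test gave p = 0.133, again the smallest possible (adjusted p = 0.178 over the 4 ratios tested). The ratio of Col18a1 to Col15a1 overlapped between groups (exact permutation p = 0.533) and rests on the few reads of Col15a1.

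Genes with a profile close to 3 of the chains were sought among tested genes whose mean over the 6 libraries reached 100 normalised counts, by the root mean square difference of log2 values, centred on the control mean, over the 6 libraries. Nearest to Col4a1 among 11794 genes were Flna, which encodes the actin cross-linker filamin A (difference 0.014), Gm6548, Sptbn1, a spectrin gene, Jade2 and Vps41, up to 0.023. Nearest to Col6a3 were Trp63, which encodes the p53 relative p63 (0.029), Rin2, the sphingosine 1-phosphate receptor gene S1pr1, Ly6c1 and the related receptor gene S1pr3, up to 0.059. Reads of Ly6c1 are uncertain where the counting split them with near-identical copies. Nearest to Col4a4 were Prdm9, Spata5l1, Cabp1, C1qtnf12 and D16Ertd472e, with differences of 0.078 to 0.12. Their log2 fold changes for both guides were 1.53 to 1.69, around that of Col4a4 (1.60 ± 0.30, SE). As Col4a4 rests on 20 to 83 recovered reads per library, which genes come nearest to it is uncertain.

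Basement membrane partners of type IV collagen were mostly lower too. Of 25 such genes in the list used, 22 were tested, of which 18 fell and 3 did not pass over both guides. Beside this count and those of the lists below, 33.6% of all tested genes fell, 34.3% rose and 67.9% passed. Where genes had to average 50 normalised counts, 4852 of 12921 fell and 10142 passed. The median log2 fold change was -0.93 and the lowest -2.72. Sparc, which encodes a collagen-binding glycoprotein, fell from a mean of 103249 normalised counts to 41601 under PC sg2 and 43282 under PC sg5 (log2 fold change -1.28 ± 0.02, SE). The laminin chain genes Lama4 (-1.67 ± 0.04) and Lamb2 (-0.90 ± 0.03) fell, as did Nid2 (-2.72 ± 0.08), which encodes a nidogen, a linker of laminin and type IV collagen. Further network genes were picked after their values were seen. Nid1, the other nidogen gene, was at -0.45, the perlecan gene Hspg2 at -0.57 and Pxdn, whose enzyme cross-links type IV collagen, at -0.92, and all 3 passed. Those that did not pass were Lama2, Lamc3 and Fras1. Lamb1 (-0.08) passed but turned to 0.05 under quantile normalisation. It also did not pass when scaled by totals without the 50 most abundant genes or without the intensity trend of the model. For PC sg2 alone Lamb1 did not pass (-0.04, limma adjusted p of 0.173).

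Of 10 genes for matrix partners of type VI collagen, 8 were tested, of which 7 fell and 1 rose (median -1.18, range -2.14 to 1.57). The small proteoglycan genes Bgn (biglycan) and Dcn (decorin) fell, with log2 fold changes of -0.97 ± 0.02 and -1.82 ± 0.04 (SE), as did Matn2 (-1.40 ± 0.03), which encodes a matrilin. Fn1 (fibronectin) had a mean of 611946 normalised counts under the control guide and a log2 fold change of -0.30 ± 0.02. Every alternative except quantile normalisation kept this call. That setting gives the same value in all libraries to a gene whose rank is unchanged, as for Fn1, and so could not test it. The gene that rose, Vwa1, encodes a matrix protein that binds perlecan, and went from 59.6 normalised counts to 178 under PC sg2 and 180 under PC sg5 (named after its values were seen).

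Receptors were mixed. Of 12 receptor genes 11 were tested, of which 8 fell, 2 rose and 1 did not pass (median -0.73, range -1.59 to 1.03). Ddr1, a collagen receptor tyrosine kinase gene, fell (log2 fold change -0.77 ± 0.04, SE), as did Mrc2 (-0.50 ± 0.03), whose product takes up collagen. Antxr1 and Antxr2 encode related anthrax toxin receptors that bind matrix proteins, type VI collagen among them, and they moved in opposite directions. Antxr1 fell (-0.73 ± 0.04), from a mean of 5714 normalised counts under the control guide to 3435 and 3470 under PC sg2 and PC sg5. Antxr2 rose (1.03 ± 0.03), from 4144 to 8879 and 8088. The other receptor gene that rose was the integrin gene Itga10 (0.44), and Cspg4, which encodes the NG2 proteoglycan, did not pass. Ddr2 (-0.13) passed but turned to 0.08 under quantile normalisation.

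Among 18 tested genes of 19 for collagen folding, modification and export, 15 fell and 3 rose (median -0.56, range -1.99 to 0.52). The prolyl hydroxylase genes P4ha3 and P4hb fell, with log2 fold changes of -1.99 ± 0.07 and -0.61 ± 0.02 (SE). P3h3 (-0.99 ± 0.04) and the coat protein gene Sec24d (-1.26 ± 0.03), which serves export of procollagen, fell too. The 3 that rose were Plod2 (0.52), Mia2 (0.33) and Plod3 (0.11), named after their values were seen. Plod3 was not past the threshold under quantile normalisation or without the intensity trend of the model. Of 13 genes for basement membrane turnover 12 were tested, of which 7 fell, 3 rose and 2 did not pass (median -0.27, range -2.61 to 0.74). The gelatinase genes Mmp2 and Mmp9, whose enzymes cleave type IV collagen, fell, with log2 fold changes of -1.30 ± 0.02 and -2.61 ± 0.08 (SE), and so did Mmp14 (-0.92 ± 0.02), whose membrane-bound enzyme activates that of Mmp2. The cathepsin gene Ctsl rose (0.38 ± 0.03). Named after their values were seen, Mmp13 (0.74) and Ctsb (0.10) rose as well, the latter not past the threshold without the intensity trend, and Mmp15 and Ctsk did not pass.

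**Figure D4:**
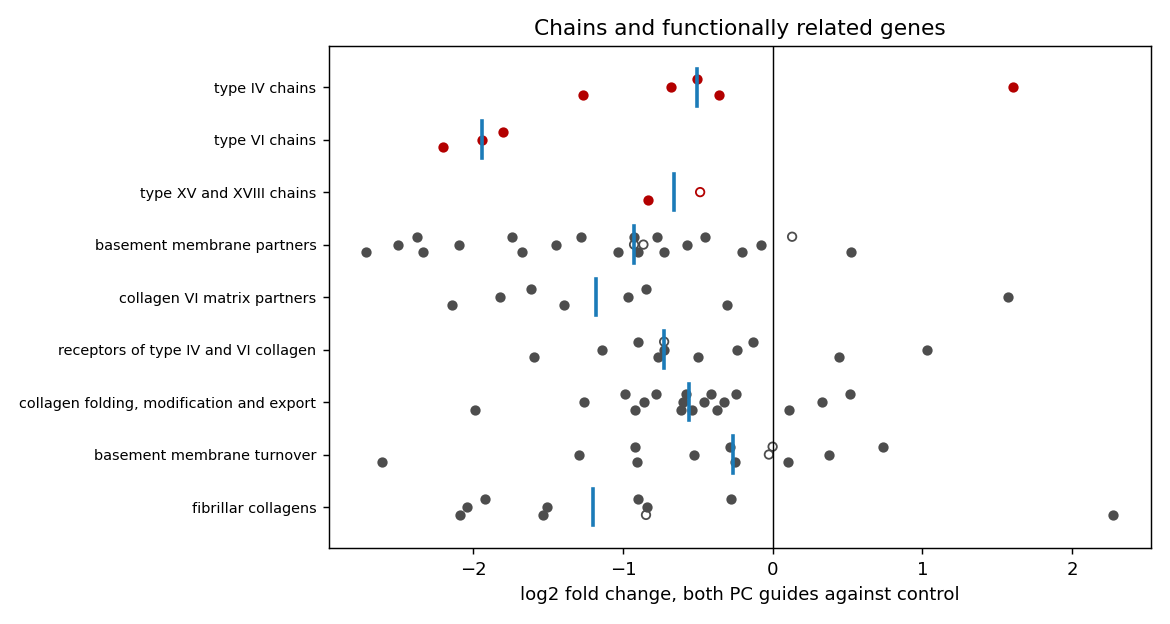
Log2 fold changes of both PC guides against control for the chains (red) and for genes of 6 related lists (grey), with filled points for genes that passed, open points for those that did not and a blue bar at each median. The type VI chains lie together at -2.20 to -1.80, while the type IV chains spread from -1.27 to 1.60.

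The fibrillar collagens, which form the thick fibres of connective tissue, had a median log2 fold change of -1.20, against -0.50 for the type IV and -1.94 for the type VI chains. Among the 10 tested, 8 fell and 1 rose. Col1a1 and Col3a1 fell, with log2 fold changes of -1.54 and -1.51, between those of Col6a2 and Col4a6, and Col1a2 fell less (-0.84). The other genes that fell were named after their values were seen. Col5a3 (-2.09), Col27a1 (-2.04) and Col11a1 (-1.92) lay within the type VI range of -2.20 to -1.80, while Col5a1 (-0.90) and Col5a2 (-0.28) fell less. Col11a2 rose (2.28), and Col2a1 did not pass. Differences between these genes and the chains were not tested.

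Markers of other cell types were low in all libraries. Of 7 endothelial markers 3 had a row in the table, and their summed level was 99.9 to 100.1 normalised counts under the control guide, 234 to 280 with PC sg2 and 284 to 344 with PC sg5. Within this list Vwf rose from 59.1 to 205 and 281, while Pecam1 and Tek did not pass. Of 8 epithelial markers only Cdh1 had a row, at 57.4 to 58.7 normalised counts under the control guide and 8.55 to 19.1 under the PC guides. Muscle markers, 3 of 7, summed to 134 to 144 under the control guide and 49.2 to 62.7 under the PC guides, with Des (-2.19) and Cnn1 (-1.40) lower and Myh11 not passing. Leukocyte markers, 3 of 6, summed to 418 to 482 and 187 to 257, with Lyz2 (-1.32) and Csf1r (-1.55) lower and Cd68 not passing. All 6 fibroblast markers, among them Col1a1 and Col1a2, fell in the PC libraries, by at least 2-fold for 5, and their median log2 fold change was -1.33. Pdgfra was at -1.61, Vim at -1.35 and Thy1 at -1.30. Their summed level was 984353 to 1023423 under the control guide and 428888 to 441818 under the PC guides. The part of these markers in the change of the collagen chains was not tested.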

How the data were processed

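Per the labels, the NEBNext Ultra kit was used on polyadenylated RNA. Tools in the submitters' processing notes are bcl2fastq 2.17, Trimmomatic, STAR, featureCounts and DESeq2, with the build GRCm38. The sources used here give no settings, annotation or use of strand. The authors deposited a signal, read counts divided by a size factor per library, for 16540 genes, and 100% of values above 0 were whole multiples (tolerance 0.01) of 1 step per library, so reads were recovered. The lowest total of a listed gene was 61 reads. IDs were matched exactly to GENCODE M21, and 16498 received a symbol.

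limma 3.58.1 (R 4.3.3) fitted 1 model of the 3 guides to log2(normalised count + 1), with an intensity trend and Benjamini-Hochberg adjustment over 16526 genes that reached 10 normalised counts in 2 or more libraries, all 10 chains among them. The model had 3 residual degrees of freedom. Alternatives were other pseudocounts, filters and scalings, no trend, a replicate block, each library left out, and edgeR 4.0.16 and DESeq2 1.42.0 on recovered reads. Levels per length used principal transcripts, with all annotated exons as an alternative chosen after seeing the data, and chain ratios were compared by exact permutation tests. The script was tested on simulated data. No batch is given in the labels, and no outlier test was made with 2 libraries per group. The rule named, beyond the chains, Pcx, the 4 genes of each of 12 lists with the smallest adjusted p and the 5 nearest profiles. Other list genes in the text were named after their values were seen. They are those that rose, did not pass or changed sign, and Nid1, Hspg2, Pxdn, Col5a1, Col5a2, Col5a3, Col11a1 and Col27a1. The result of 1 list gene is not reported here. The chains and lists were chosen with earlier results of these data known.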

Additional observations from a re-analysis of the deposited data

How the results depend on the processing

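For both guides against control and for each guide, the call and direction of the 9 chains that passed held under every alternative in which they were tested. Among 16 alternatives, the log2 fold change for both guides ranged from -2.26 to -2.12 for Col6a3, -1.98 to -1.75 for Col6a1, -0.72 to -0.56 for Col4a1 and, over the 15 that tested it, 1.25 to 1.90 for Col4a4. Where genes had to average 50 normalised counts, Col4a4 and Col15a1 were not tested. Col15a1 passed for PC sg5 against control without PC sg5 replicate 1 (-1.54, limma adjusted p = 0.0477) and without the intensity trend (-1.15, adjusted p = 0.0306), over a range of adjusted p from 0.0306 to 0.315. Over the 40 chain results, 626 of 632 alternative values kept their direction and side of the threshold, 2 passed newly and 4 turned sign, none of them past the threshold. The 4 were all for PC sg5 against PC sg2: Col4a6 without PC sg5 replicate 1 (0.050), Col6a1 (-0.037) and Col6a2 (-0.020) without PC sg2 replicate 2, and Col6a2 without PC sg5 replicate 2 (-0.027). With 1 library left out, these differences ranged from -0.53 to 0.050 for Col4a6, -0.037 to 0.11 for Col6a1 and -0.027 to 0.089 for Col6a2.

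The number of genes called for PC sg5 against PC sg2, 40 by limma, was 65 with a pseudocount of 10, 65 where genes had to average 50 normalised counts, 68 with edgeR, 85 with DESeq2 and 0 without the intensity trend (1241 at an unadjusted p under 0.05). Leaving out 1 library in turn, with the lone library of that guide assumed to vary like the others, gave 10 (without PC sg2 replicate 2) to 216 (without PC sg5 replicate 1), with 14 without PC sg2 replicate 1 and 25 and 26 without a control library. The cause was not tested. The replicate block gave 160, and it changed no call of a chain. Replicate numbers share no stated origin, and differences between replicates correlated at 0.02 to 0.05 between groups over 11795 genes. Under quantile normalisation the median of all genes was 0.05, against -0.01 as deposited, and genes called for both guides split into 6085 higher and 5096 lower. The lower basement membrane partners numbered 14 to 19 over the alternatives. Depth limits Col15a1, Col4a4 and Col4a6, which rest on 2 to 417 recovered reads per library.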
